A study of Homo sapiens with 15 samples.

Results

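The genes described here are 10 NOD-like receptors and inflammasome parts, *NOD1*, *NOD2*, *NLRP1*, *NLRP3*, *NLRP12*, *NLRC4*, *NLRC5*, *NLRX1*, *PYCARD* and *CASP1*. They were taken by gene symbol from a table of 60286 genes, and all 10 were among the 17198 genes with enough reads to be tested. RNA was sequenced from THP-1 cells, a human monocytic leukaemia line, in 15 libraries, 3 per group. Non-stimulated cells (NC) received PBS, EUC and EPL cells received 1 μg/mL bacterial extracellular vesicles (BEVs) of *E. coli* DH5a, and SUC and SPL cells received 10 μg/mL BEVs of *S. aureus*. UC in a group's name stands for BEVs isolated by ultracentrifugation and PL for BEVs isolated with ε-poly-L-lysine. The species and the dose changed together, so that neither can be told apart from the other. The methods give 6 h of incubation, and the labels give Day 0. The libraries are triplicates, and the labels do not say that they came from separate cultures, so p-values measure the spread between these samples only.

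NOD-like receptors are proteins of the cytosol that sense bacterial products and signs of cell damage. NOD1 and NOD2 bind fragments of bacterial peptidoglycan and signal through the kinase RIPK2 to NF-kappa B. NLRP1, NLRP3 and NLRC4 can instead assemble inflammasomes, in which the adaptor ASC, encoded by *PYCARD*, brings caspase-1 (*CASP1*) to the complex, and caspase-1 then cleaves pro-interleukins and the pore protein gasdermin D.

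A total of 14399421 to 16637345 reads was counted per library. The label of a monocytic line was checked with 12 marker genes, of which 11 had a mean of at least 1 CPM (reads of a gene scaled to library size), and their summed level was 3047 to 3215 CPM in NC and 3010 to 4001 CPM with BEVs. The exception was *CD68*, with a mean of 0.0766 CPM. The markers of T cells (0 of 4), epithelial cells (0 of 3) and erythroid cells (0 of 3) did not reach 1 CPM, with summed levels of at most 0.0624, 0.384 and 0 CPM. Replicate 3 of EUC, replicate 1 of EPL and replicate 3 of SUC stood apart from their groups. Their deviations from the group means over all genes correlated with each other (r between 0.44 and 0.52, across genes) and with exon length (Spearman's rho of −0.26, −0.26 and −0.28). Deviations also correlated with GC content, most in EPL replicate 3 (rho of −0.35), EPL replicate 1 (0.33) and SPL replicate 3 (−0.30). Values without EUC replicate 3, EPL replicate 1 and SUC replicate 3 are given where they matter.

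The promoters of 3 members are shown because these genes took different courses with BEVs: *NOD2* rose, *NLRP3* did not pass the test, and *NLRP12* fell. The bases come from RefSeq (GRCh38.p14), 5′ to 3′ on the strand of the gene, and end at the start that RefSeq lists or before the first exon in GENCODE. These are chr16:50696698-50696947 (+ strand) for *NOD2*, chr1:247415923-247416155 (+ strand) for *NLRP3* and chr19:53824404-53824564 (− strand) for *NLRP12*. The stretch of *NOD2* precedes a start that RefSeq lists but lies inside the gene as GENCODE annotates it, downstream of the start of that annotation and in no exon. Capitals mark a match to one of 4 motifs searched on both strands, namely GGANNTTCC and GGGNNTTCC (kappa B), GAAANNGAA (interferon response) and GAGGAAGT (the core of PU.1 sites, the factor encoded by *SPI1*), none of which overlapped another in these genes.
NOD2: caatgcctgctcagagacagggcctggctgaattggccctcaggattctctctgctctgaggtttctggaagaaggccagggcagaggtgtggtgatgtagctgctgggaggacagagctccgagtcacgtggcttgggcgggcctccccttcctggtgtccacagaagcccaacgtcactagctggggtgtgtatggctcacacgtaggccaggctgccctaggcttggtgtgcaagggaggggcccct
NLRP3: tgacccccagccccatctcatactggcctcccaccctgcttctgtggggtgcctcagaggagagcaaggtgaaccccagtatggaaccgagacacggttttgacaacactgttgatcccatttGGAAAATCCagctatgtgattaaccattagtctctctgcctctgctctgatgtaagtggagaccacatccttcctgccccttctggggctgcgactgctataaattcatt
NLRP12: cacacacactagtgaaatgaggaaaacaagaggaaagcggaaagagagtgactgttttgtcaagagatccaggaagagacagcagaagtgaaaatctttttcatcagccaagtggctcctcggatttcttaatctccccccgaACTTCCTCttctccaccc

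Windows of 250 bases before to 50 bases after a start were listed for 7 of the 10 members, with 10 windows in all. *NLRP3* held GGANNTTCC, starting 127 bases before the start that RefSeq lists and on the opposite strand, and 4.56% of 35116 promoters held these letters. *NLRP12* held GAGGAAGT, 107 bases before its RefSeq start and also on the opposite strand, and 2.59% of all promoters held these letters. The last 17 bases before the RefSeq start of *NLRP3* and the last 89 before that of *NLRP12* are exon in GENCODE. Those bases are not printed above, so the matches lie nearer to the ends of the printed stretches. *NLRX1* held GGGNNTTCC, which 6.58% of promoters held, one of the 3 windows of *NLRC4* held GAAANNGAA (8.11% of promoters), and *PYCARD* held GAGGAAGT just after its listed start. These windows of *NLRX1*, *NLRC4* and *PYCARD* lie inside the genes as GENCODE annotates them. Of the 250 bases before the listed start, all 250 are exon for *PYCARD* and 146 for *NLRX1*. None of the 4 motifs was found in the window of *NOD1* or in either window of *NOD2*. A match describes letters in the window and no binding was measured.

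Of the 10 members, *NOD2*, *CASP1* and *NLRC4* were higher in all 12 BEV libraries than in every NC library, and *NLRP12*, *NLRP1*, *PYCARD* and *NLRX1* were lower in all 12. The share of all tested genes that separated from NC in this way was not counted. It may be large, as 8269 of the 17198 tested genes had an unadjusted p under 0.05 with EUC in edgeR's test. *NLRP3*, *NOD1* and *NLRC5* passed the test in no group. A gene was counted as differentially expressed (DEG) when its adjusted p did not exceed 0.01 and its level differed by 2-fold or more. With EUC, 2 members were higher as DEGs (*NOD2* and *CASP1*), against 9.43% of all tested genes, and 3 were lower (*NLRP1*, *NLRP12* and *PYCARD*), against 5.75%. With EPL, 3 members were higher as *NLRC4* joined them (under 2-fold without the 3 libraries that stood apart), against 9.38%, and the same 3 members as with EUC were lower, against 5.15%. With SUC, *NOD2* was the 1 higher DEG, against 6.82% of all tested genes, and *NLRP12* the 1 lower DEG, against 3.06%. With SPL, *NOD2* and *CASP1* were higher, against 7.76%, and *NLRP1*, *NLRP12* and *PYCARD* were lower, against 3.70%. All 4 comparisons use the same 3 NC libraries. In bulk RNA, fewer cells that express a gene and less of its RNA per cell cannot be told apart.

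By the adjusted p alone, 2 members rose and 4 fell with EUC, against 16.5% and 14.0% of all tested genes. With EPL, 3 rose and 4 fell, against 16.0% and 13.2%. With SUC, 3 rose and 3 fell, against 12.4% and 9.15%. With SPL, 3 rose and 4 fell, against 13.3% and 10.6%. The members added by leaving out the fold threshold were *NLRX1* in every group, *CASP1*, *NLRC4* and *PYCARD* with SUC, and *NLRC4* with SPL. The members moved to both sides, and their median log2 fold change was −0.16 with EUC, 0.04 with EPL, −0.16 with SUC and −0.03 with SPL. Over all tested genes that median was 0.00 with EUC, 0.00 with EPL, 0.01 with SUC and −0.01 with SPL. The sizes of the changes had medians of 0.93, 1.14, 0.84 and 0.98 on the log2 scale over the members, in the order EUC, EPL, SUC and SPL. These medians were 0.38, 0.36, 0.31 and 0.32 over all tested genes. The members were chosen with earlier results of these data known, so the larger sizes may follow in part from that choice.

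**Figure D1:**
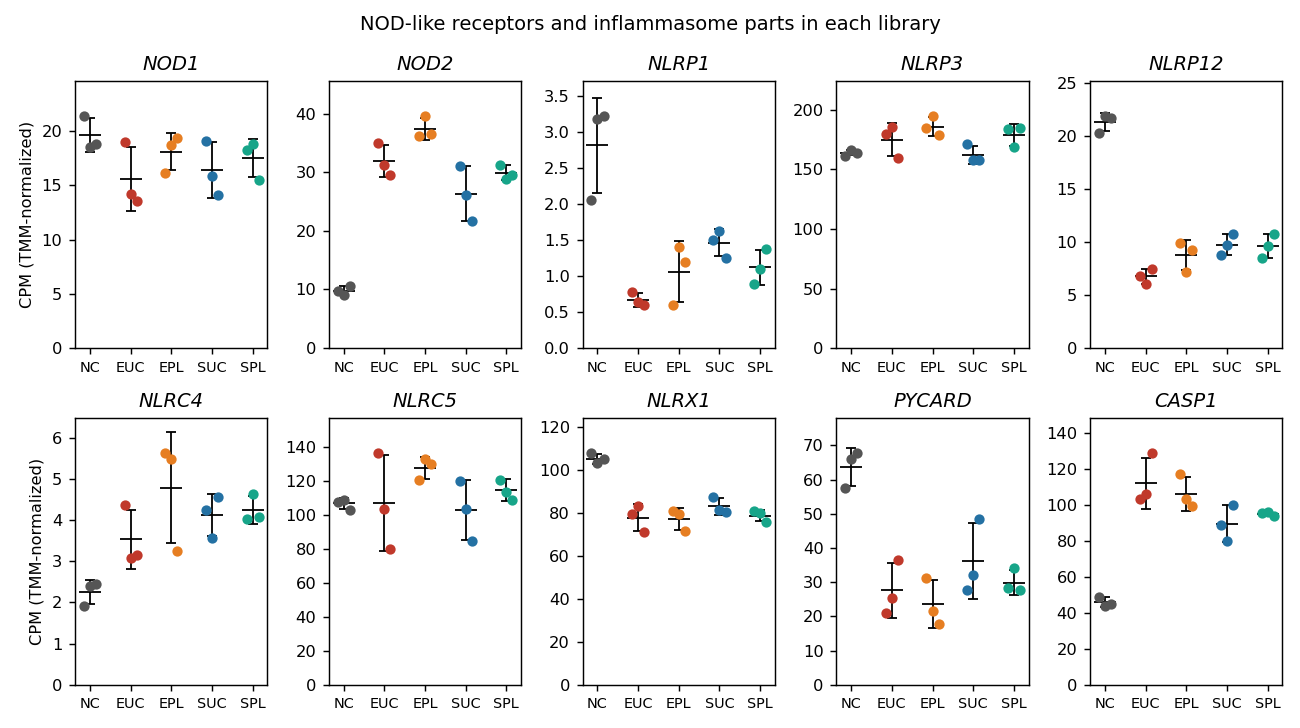
Level of each member in each library, in CPM on axes that start at 0, for the 5 groups NC, EUC, EPL, SUC and SPL. Each point is a library, and the bar with whiskers is the mean ± SD of 3 libraries. *NOD2*, *NLRC4* and *CASP1* lay above NC in all 12 BEV libraries, and *NLRP1*, *NLRP12*, *NLRX1* and *PYCARD* lay below it. The share of all tested genes that did so was not counted.

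*NOD2* (ENSG00000167207, chr16:50693588-50733077, + strand), the sensor of muramyl dipeptide, was the member with the largest rise. Its level in the 3 NC libraries was 9.66, 9.06 and 10.6 CPM. With *E. coli* BEVs it was 35.0, 31.3 and 29.5 CPM in EUC and 36.1, 39.6 and 36.5 CPM in EPL. With *S. aureus* BEVs it was 31.1, 26.1 and 21.7 CPM in SUC and 31.3, 28.9 and 29.5 CPM in SPL. The lowest BEV library was thus above the highest NC library by a wide margin. The log2 fold change was 1.71 (SE 0.12, adjusted p = 4.97e-09) with EUC, 1.94 (SE 0.12, adjusted p = 9.73e-10) with EPL, 1.43 (SE 0.12, adjusted p = 8.58e-08) with SUC and 1.62 (SE 0.12, adjusted p = 1.45e-08) with SPL. In order of level, NC lay below SUC, and SUC, SPL and EUC overlapped in their ranges, while EPL lay above EUC without overlap. The difference between EPL and EUC did not pass edgeR's test (adjusted p = 0.947). The rise passed the test under all 13 alternatives run in each group. Exons of *NOD2* overlap those of *CYLD-AS1* on the opposite strand, and the strand setting of the counting is not given in the sources used here.

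*NOD1* (ENSG00000106100, chr7:30424527-30478784, − strand), which senses diaminopimelic acid in peptidoglycan of mostly Gram-negative bacteria, took no such course. Its level was 21.4, 18.5 and 18.8 CPM in NC, 19.0, 14.2 and 13.6 CPM in EUC and 16.1, 18.7 and 19.4 CPM in EPL. In SUC it was 19.1, 15.9 and 14.1 CPM and in SPL 18.3, 18.8 and 15.5 CPM. All 4 BEV groups overlapped NC, and 7 of 12 BEV libraries were below the lowest NC library while 0 were above the highest. The log2 fold changes were −0.33 (95% interval −0.63 to −0.03, adjusted p = 0.0766) with EUC, −0.11 with EPL, −0.26 with SUC and −0.16 with SPL, and none passed the test. *NOD1* was the more abundant of the pair in NC, at 2.87 ± 0.229 CPM per kb of exon (SD, n = 3) against 1.28 ± 0.0986 CPM per kb for *NOD2*, and its exons overlap a long noncoding RNA gene on the opposite strand. With EPL the order was turned, at 2.65 ± 0.252 CPM per kb for *NOD1* and 4.90 ± 0.251 CPM per kb for *NOD2*.

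*NLRP3* (ENSG00000162711, chr1:247416156-247449108, + strand), the sensor of an inflammasome that responds to potassium efflux and many forms of stress, was already abundant without BEVs. Its level was 161, 166 and 164 CPM in NC, 180, 186 and 160 CPM in EUC and 185, 195 and 179 CPM in EPL. It was 171, 158 and 158 CPM in SUC and 184, 169 and 185 CPM in SPL. The EPL and SPL libraries lay above NC without overlap, and the EUC and SUC libraries did not. In edgeR's tests between methods, *NLRP3* passed neither for EPL against EUC (adjusted p = 0.947) nor for SPL against SUC (0.856). Against NC, the log2 fold change was 0.10 (95% interval −0.06 to 0.26) with EUC, 0.19 (0.03 to 0.35) with EPL, −0.01 (−0.17 to 0.15) with SUC and 0.13 (−0.03 to 0.29) with SPL. The smallest adjusted p was 0.0623, with EPL, and no alternative brought it to 0.01 in any group (smallest 0.0125). The upper ends of the 95% intervals reach a rise of 1.27-fold. Exons of *NLRP3* overlap a long noncoding RNA gene on the same strand.

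*NLRP1* (ENSG00000091592, chr17:5499415-5619424, − strand), a sensor that is activated by proteolysis of its own N-terminal part and by other stresses, had the lowest level per length of the members. In NC it was at 2.05, 3.18 and 3.22 CPM, and in EUC at 0.780, 0.641 and 0.592 CPM. In EPL it was at 0.591, 1.40 and 1.19 CPM, in SUC at 1.50, 1.62 and 1.25 CPM and in SPL at 0.894, 1.09 and 1.38 CPM. No BEV library reached the lowest NC library. The counts behind these levels were few, with 140 reads over the 3 NC libraries and 31 over the 3 EUC libraries. Its log2 fold change was −2.06 (SE 0.33, adjusted p = 6.33e-05) with EUC, −1.40 (SE 0.30, adjusted p = 0.00130) with EPL and −1.33 (SE 0.30, adjusted p = 0.00238) with SPL. With SUC it was −0.94 (SE 0.29, adjusted p = 0.0207) and did not pass. The SPL call was lost without NC replicate 2 (adjusted p = 0.0144), NC replicate 3 (0.0137), SPL replicate 1 (0.0181) or SPL replicate 2 (0.0113), with a log2 fold change of −1.51 to −1.17 over all leave-outs. Exons of *NLRP1* overlap those of another protein-coding gene on the same strand, so its counts are uncertain.

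*NLRC4* (ENSG00000091106, chr2:32224453-32265732, − strand), which forms an inflammasome with NAIP proteins that bind bacterial flagellin and secretion system parts, was also low. Its level was 1.92, 2.41 and 2.44 CPM in NC, 4.36, 3.08 and 3.16 CPM in EUC and 5.64, 5.48 and 3.25 CPM in EPL. It was 4.24, 3.56 and 4.55 CPM in SUC and 4.02, 4.64 and 4.07 CPM in SPL. Every BEV library was above every NC library, on totals of 112 reads in NC and 163 to 224 reads in the BEV groups. It rose with EPL, at a log2 fold change of 1.08 (SE 0.23, adjusted p = 9.94e-04), with SPL, at 0.90 (SE 0.23, adjusted p = 0.00514), and with SUC, at 0.86 (SE 0.23, adjusted p = 0.00819). With EUC the log2 fold change was 0.64 (SE 0.23, adjusted p = 0.0363) and did not pass. The rise with EPL was short of 2-fold, so that *NLRC4* was no DEG there, without the 3 libraries that stood apart (0.94, adjusted p = 0.00211), without EPL replicate 1 (0.94) or 2 (0.96) and without NC replicate 1 (0.98). The SPL call was lost when any 1 library of NC or SPL was left out (adjusted p of 0.0112 to 0.0293), and the SUC call when any of them but SUC replicate 2 was (0.0192 to 0.0428). The SUC call was also lost with the replicate number as a block (0.0122), without the 3 libraries that stood apart (0.0140) and with a correction for exon length and GC content (0.0144), at log2 fold changes of 0.86, 0.78 and 0.80. Exons of *NLRC4* overlap a long noncoding RNA gene on the opposite strand.

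**Figure D2:**
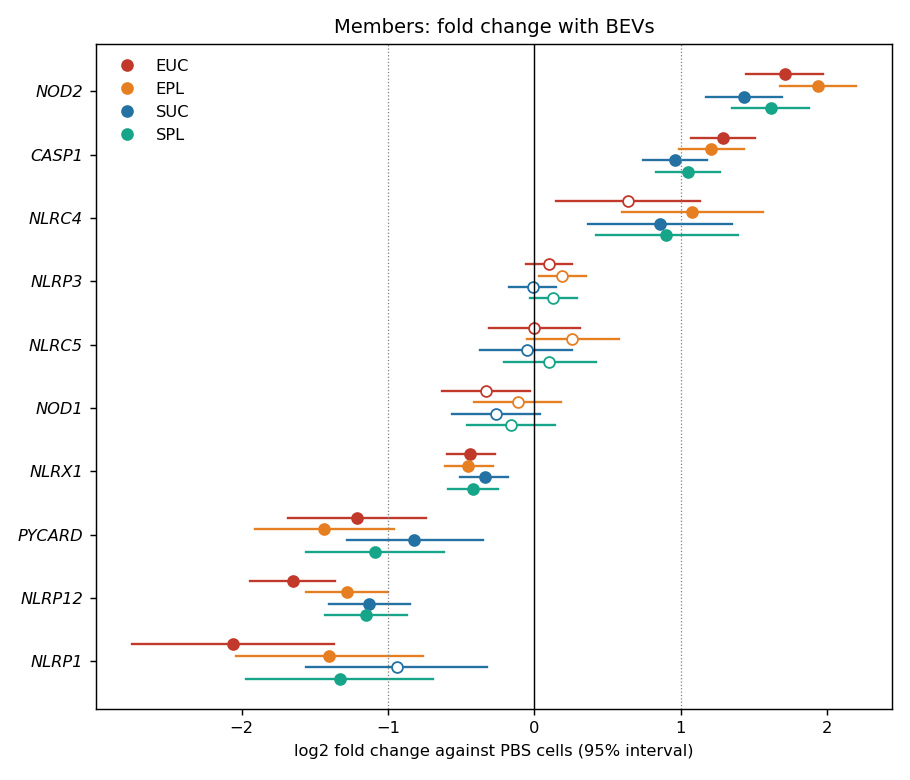
Log2 fold change of each member against NC, with its 95% interval, for EUC, EPL, SUC and SPL. Filled points passed an adjusted p of 0.01, open points did not, and dotted lines mark a 2-fold change. The points of *NOD2*, *CASP1* and *NLRC4* lie right of 0, those of *NLRX1*, *PYCARD*, *NLRP12* and *NLRP1* left of it, and those of *NLRP3*, *NLRC5* and *NOD1* near it.

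*NLRP12* (ENSG00000142405, chr19:53793741-53824403, − strand) is known in myeloid cells as a brake on NF-kappa B signalling. Its level was 20.3, 21.9 and 21.7 CPM in NC, 6.76, 6.09 and 7.49 CPM in EUC and 9.91, 7.20 and 9.24 CPM in EPL. It was 8.81, 9.75 and 10.8 CPM in SUC and 8.50, 9.60 and 10.8 CPM in SPL. The highest BEV libraries stood near the middle between 0 and the NC level, and none came close to NC. The log2 fold change was −1.65 (SE 0.14, adjusted p = 2.91e-08) with EUC, −1.28 (SE 0.13, adjusted p = 5.55e-07) with EPL, −1.13 (SE 0.13, adjusted p = 3.60e-06) with SUC and −1.15 (SE 0.13, adjusted p = 2.45e-06) with SPL. It fell under all 13 alternatives in each group, and no annotated gene overlaps it. *NLRP12* and *NOD2* were the 2 members called as DEGs in all 4 groups, which share their NC libraries. How many of all tested genes were called in all 4 groups was not counted. On the scale of CPM per kb of exon, *NLRP12* was above *NOD2* in NC (4.30 ± 0.173 against 1.28 ± 0.0986, SD, n = 3) and below it in every BEV group, for example at 1.37 ± 0.142 against 4.19 ± 0.366 in EUC.

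*NLRX1* (ENSG00000160703, chr11:119166568-119184016, + strand), a receptor of the mitochondrion that dampens antiviral and NF-kappa B signalling, fell by less. Its level was 108, 103 and 105 CPM in NC, 79.3, 83.0 and 71.1 CPM in EUC and 81.0, 79.5 and 71.4 CPM in EPL. It was 87.4, 81.2 and 80.3 CPM in SUC and 80.6, 79.9 and 75.7 CPM in SPL. The groups did not overlap NC, and the BEV groups overlapped each other. Against NC, the log2 fold change was −0.44 (SE 0.08, adjusted p = 2.62e-04) with EUC, −0.45 (SE 0.08, adjusted p = 2.18e-04) with EPL, −0.34 (SE 0.08, adjusted p = 0.00281) with SUC and −0.42 (SE 0.08, adjusted p = 4.74e-04) with SPL. With a correction for exon length and GC content per library, which was added after the data were seen, all 4 calls were lost. The correction was fitted to deviations from the mean of all 15 libraries. It therefore also removes differences between BEV groups and NC that go with length or GC content. The values were then −0.19 (adjusted p = 0.0214), −0.22 (0.0102), −0.10 (0.234) and −0.21 (0.0152). The exons of *NLRX1* have a GC content of 61.9%. Those of *PYCARD*, whose fall still passed in all 4 groups with this correction, have 62.6%. Whether GC content bears on the lost calls was not tested. The SUC call was also lost without NC replicate 1 (0.0161), NC replicate 3 (0.0107), SUC replicate 2 (0.0164) or SUC replicate 3 (0.0139), and without a filter on low counts (0.0222).

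*NLRC5* (ENSG00000140853, chr16:56989485-57083531, + strand), the activator of MHC class I genes, had replicates in EUC and SUC that spread more widely than the group means did. Its level was 108, 109 and 103 CPM in NC, 137, 104 and 80.3 CPM in EUC and 121, 133 and 130 CPM in EPL. It was 120, 104 and 84.6 CPM in SUC and 121, 114 and 109 CPM in SPL. EPL lay above NC without overlap, and the other groups overlapped NC. Its log2 fold change was 0.00 with EUC, 0.26 (95% interval −0.05 to 0.58, adjusted p = 0.173) with EPL, −0.05 with SUC and 0.10 with SPL. With EPL it passed under 2 of 13 alternatives, at 0.31 without the 3 libraries that stood apart and at 0.37 with the correction for length and GC content. *NLRC5*, at 12386 bases of exon, was lowest of its group in the 3 libraries that stood apart, at 80.3, 121 and 84.6 CPM. *PYCARD*, the member with the shortest exons at 1660 bases, was highest of its group in the same 3 libraries, at 36.5, 31.3 and 48.6 CPM.

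*PYCARD* (ENSG00000103490, chr16:31201486-31203450, − strand) had the highest level per length of all members in NC. Its level was 57.5, 66.0 and 67.9 CPM in NC, 20.9, 25.3 and 36.5 CPM in EUC and 31.3, 21.6 and 17.9 CPM in EPL. It was 27.8, 32.1 and 48.6 CPM in SUC and 28.2, 34.1 and 27.6 CPM in SPL. The BEV libraries were all below NC, with a spread of 27.6 ± 8.04 CPM in EUC, 23.6 ± 6.94 CPM in EPL and 36.2 ± 11.0 CPM in SUC (SD, n = 3). The log2 fold change was −1.21 (SE 0.22, adjusted p = 2.97e-04) with EUC, −1.44 (SE 0.23, adjusted p = 6.28e-05) with EPL and −1.09 (SE 0.22, adjusted p = 9.36e-04) with SPL. With SUC it was −0.82 (SE 0.22, adjusted p = 0.00860), short of 2-fold. Without the 3 libraries that stood apart it was −1.47 with EUC, −1.69 with EPL and −1.08 with SUC (adjusted p = 3.53e-09). With the correction for length and GC content it was −0.97 with SPL (adjusted p = 1.19e-04), short of 2-fold. The SUC call was lost with the replicate number as a block (adjusted p = 0.0108) and without NC replicate 1 (0.0146), 2 (0.0316) or 3 (0.0335) or SUC replicate 1 (0.0510) or 2 (0.0474). Exons of *PYCARD* overlap those of *PYCARD-AS1* on the opposite strand, and reads of the pair cannot be told apart where the strand was not used.

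*CASP1* (ENSG00000137752, chr11:105025397-105035250, − strand), the effector protease, went the other way from its adaptor. Its level was 49.0, 43.9 and 45.0 CPM in NC, 103, 106 and 129 CPM in EUC and 117, 103 and 99.3 CPM in EPL. It was 88.8, 79.7 and 99.9 CPM in SUC and 95.5, 95.9 and 93.6 CPM in SPL. All BEV libraries were above NC, SUC and SPL overlapped, EPL and EUC overlapped, and EPL lay above SPL without overlap, while 1 SUC library, at 99.9 CPM, reached the range of EPL. Against NC, the log2 fold change was 1.29 (SE 0.10, adjusted p = 2.27e-08) with EUC, 1.21 (SE 0.10, adjusted p = 5.47e-08) with EPL, 0.96 (SE 0.10, adjusted p = 1.43e-06) with SUC and 1.05 (SE 0.10, adjusted p = 4.29e-07) with SPL. The rise passed the test under all 13 alternatives in each group, at 0.87 to 1.05 with SUC. *CASP1* shares near-identical sequence with its neighbour *CARD16*, which also rose (log2 fold change 1.04 with EUC and 0.79 with SPL), so the split of reads between them is uncertain.

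Levels of different genes were compared per length, as mean CPM per kb of exon. In NC the order was *PYCARD* (38.4 ± 3.35, SD, n = 3), *NLRP3* (34.4 ± 0.429), *NLRX1* (19.8 ± 0.464), *CASP1* (11.6 ± 0.675), *NLRC5* (8.62 ± 0.264), *NLRP12* (4.30 ± 0.173), *NOD1*, *NOD2*, *NLRC4* (0.596 ± 0.0776) and *NLRP1* (0.140 ± 0.0330). In all 4 BEV groups *NLRP3* was first and *CASP1* came after it. *CASP1* was at 28.4 ± 3.58 CPM per kb in EUC and 26.8 ± 2.35 in EPL, and at 22.6 ± 2.55 in SUC and 24.0 ± 0.306 in SPL. *PYCARD* came next, or just after *NLRX1* in EPL, at 16.6 ± 4.85, 14.2 ± 4.18, 21.8 ± 6.61 and 18.0 ± 2.16 CPM per kb. The ranges over libraries of neighbours in this order were apart except in 6 places. These were *PYCARD* and *NLRP3* in NC, *PYCARD* and *NLRX1* in EUC and EPL, *PYCARD* and *CASP1* in SUC, *NOD1* and *NLRP12* in SUC, and *NLRP12* and *NLRC4* in EPL. *NOD2* and *NLRP12* changed places in every BEV group, with *NOD1* between them. These levels depend on the union of annotated exons, which is longest for *NLRP1* (20157 bases).

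**Figure D3:**
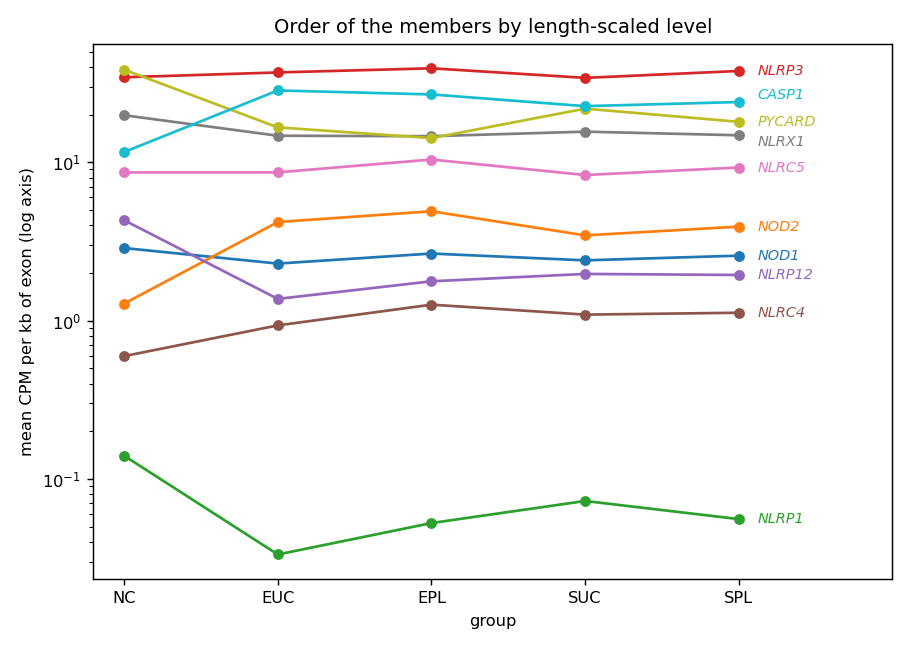
Mean level of each member in CPM per kb of exon, on a log axis, in NC, EUC, EPL, SUC and SPL, with a line per gene. *CASP1* and *PYCARD* cross between NC and the BEV groups, as do *NOD2* and *NLRP12*, and *NLRP3* stays between 34.1 and 39.2 CPM per kb.

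The isolation methods were compared within each species. Between EPL and EUC, 0 members passed with edgeR and 0 were DEGs with DESeq2, and 0% of all tested genes were DEGs. The log2 differences (EPL minus EUC) ran from −0.23 for *PYCARD* to 0.66 for *NLRP1*. At an unadjusted p under 0.05 there were 604 of the 17198 tested genes and 1 member, *NLRP12*. Its difference was 0.37 (95% interval 0.07 to 0.68, adjusted p = 0.947), and its libraries overlapped, as EUC reached 7.49 CPM and EPL began at 7.20 CPM. The difference was 0.23 (−0.01 to 0.47) for *NOD2* and 0.66 (−0.11 to 1.42) for *NLRP1*, an interval for *NLRP1* that reaches past a 2-fold difference. Between SPL and SUC, again 0 members passed with edgeR and 0 were DEGs with DESeq2, against 0.00581% of all tested genes. At an unadjusted p under 0.05 there were 0 members and 1000 of the 17198 tested genes. The log2 differences (SPL minus SUC) ran from −0.38 for *NLRP1* (95% interval −1.07 to 0.30) to 0.19 for *NOD2* (−0.06 to 0.43). The smallest adjusted p was 0.856, for *NLRP3*. The difference between methods was also compared between the species. In this test 0 members and 0% of all tested genes were DEGs. At an unadjusted p under 0.05 there were 659 of the 17198 tested genes and 1 member, *NLRP1* (log2 difference 1.04, 95% interval 0.01 to 2.06, adjusted p = 1.00).

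The mean of both *E. coli* groups was compared with the mean of both *S. aureus* groups. Here 0 members passed with edgeR and 0 were DEGs with DESeq2, while 0.663% of all tested genes were higher DEGs with *E. coli* BEVs and 0.0233% lower. By the adjusted p alone the shares of all tested genes were 2.87% higher and 1.00% lower. At an unadjusted p under 0.05 there were 2920 of the 17198 tested genes and 5 members. The log2 difference (*E. coli* minus *S. aureus* BEVs) was 0.30 (95% interval 0.13 to 0.47, adjusted p = 0.0318) for *NOD2* and 0.25 (0.09 to 0.40, adjusted p = 0.0506) for *CASP1*. It was −0.33 (−0.54 to −0.12, adjusted p = 0.0583) for *NLRP12*, −0.59 (−1.11 to −0.08, adjusted p = 0.200) for *NLRP1* and −0.37 (−0.71 to −0.03, adjusted p = 0.240) for *PYCARD*. For each of these 5 genes the group mean farther from NC was that of *E. coli* BEVs. *NOD2* passed without SUC replicate 1 (adjusted p = 0.00640), without the 3 libraries that stood apart (0.00738) and with the correction for length and GC content (0.00370). *PYCARD* passed without the 3 libraries (−0.49, adjusted p = 1.52e-04) and without a filter on low counts (8.89e-04), and *CASP1* without the 3 libraries (0.00833).

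The rest of the pathway was followed on 70 other genes in 6 lists, of which 68 were in the table and 55 were tested. The lists were chosen with earlier results of these data known. Differences of their counts and medians from all tested genes, here and below, may therefore follow in part from that choice. With EUC, 20 of the 55 were higher as DEGs and 2 lower, against 9.43% and 5.75% of all tested genes. With EPL they were 21 and 1, against 9.38% and 5.15%, with SUC 14 and 2, against 6.82% and 3.06%, and with SPL 16 and 2, against 7.76% and 3.70%. By the adjusted p alone 29 rose and 7 fell with EUC (16.5% and 14.0% of all tested genes), 29 and 7 with EPL (16.0% and 13.2%), 22 and 5 with SUC (12.4% and 9.15%), and 25 and 6 with SPL (13.3% and 10.6%). Their median log2 fold change was 0.51 with EUC, 0.47 with EPL, 0.34 with SUC and 0.33 with SPL, and that of all tested genes 0.00, 0.00, 0.01 and −0.01.

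Cytokine substrates and their antagonists held the largest rises, with 4 of 6 tested genes rising in every group, where 12.4% to 16.5% of all tested genes rose. *IL1B*, which encodes the pro-interleukin cleaved by caspase-1, was at 1.54, 2.71 and 2.21 CPM in NC, 1524, 1688 and 1987 CPM in EUC and 666, 498 and 633 CPM in SUC. Its log2 fold change was 9.64 (SE 0.20, adjusted p = 1.22e-15) with EUC, 9.28 (SE 0.20) with EPL, 8.11 (SE 0.19) with SUC and 8.63 (SE 0.19) with SPL. *IL18*, which encodes the other main substrate of caspase-1, did not pass in any group, with 8.45, 8.82 and 10.3 CPM in NC and log2 fold changes of 0.02, 0.06, 0.01 and −0.25. *IL1A*, an alarmin of the same family, had 3 reads over the NC libraries and 645 with EUC, a ratio of 230 (95% exact binomial interval 78.3 to 1118, counting error only). *IL33*, another alarmin, had 0 reads in NC and was at least 97.7-fold higher with EUC, 84.2-fold with EPL, 22.7-fold with SUC and 30.3-fold with SPL, set against a floor of 3 counts over the group.

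Among caspases and pore proteins, 4 of 6 genes rose with EUC and with EPL and 2 with SUC and with SPL, against 16.5%, 16.0%, 12.4% and 13.3% of all tested genes. *CASP4*, which encodes a caspase that binds lipopolysaccharide in the cytosol, was at 39.2, 36.8 and 38.9 CPM in NC and 77.1, 83.1 and 79.7 CPM in EUC. Its log2 fold change was 1.06 (SE 0.08, adjusted p = 7.54e-09) with EUC, 1.03 with EPL, 0.84 with SUC and 0.91 with SPL, all past the test. *NINJ1*, needed for the rupture of the cell membrane in lytic death, rose on the log2 scale by 2.93 (SE 0.14) with EUC, 2.71 with EPL, 2.31 with SUC and 2.47 with SPL. *GSDMD*, which encodes gasdermin D, did not pass, with 143, 156 and 166 CPM in NC and log2 fold changes of 0.25 (adjusted p = 0.225), 0.18, 0.16 and 0.17. With the correction for length and GC content it passed in all 4 groups, at 0.42 to 0.53. That correction also acts on differences between groups that go with length or GC content.

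Among the other sensors 9 of 16 genes were tested, and 4 rose with EUC, EPL and SPL and 3 with SUC (12.4% to 16.5% of all tested genes rose), while *NLRC3* fell in every group. *NLRC3*, known to restrain T cell and STING signalling, was at 7.87, 8.29 and 7.15 CPM in NC and 2.28, 2.37 and 1.91 CPM in EUC, with log2 fold changes of −1.83, −1.64, −1.72 and −1.40 in the order EUC, EPL, SUC and SPL. *AIM2*, a sensor of DNA in the cytosol, had 1 read over the NC libraries and 29, 19, 14 and 30 reads in the BEV groups, a ratio of 31.0 (95% exact binomial interval 5.14 to 1267) with EUC. With SUC its call (adjusted p = 0.00449) was lost with DESeq2 (0.0159), without a filter (0.0118) and without NC replicate 1 (0.0228), NC replicate 2 (0.0245), SUC replicate 1 (0.0198) or SUC replicate 2 (0.0128). *NAIP*, the partner of NLRC4, did not pass, with log2 fold changes of −0.17, 0.22, −0.48 and −0.06.

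Of 19 genes of NOD1 and NOD2 signalling, 10 rose and 4 fell with EUC and with EPL, 8 rose and 4 fell with SUC, and 9 rose and 4 fell with SPL. Of all tested genes 12.4% to 16.5% rose and 9.15% to 14.0% fell in these groups. *RIPK2*, the kinase of both receptors, was at 21.2, 14.8 and 16.6 CPM in NC and 21.7, 23.5 and 26.6 CPM in EUC. Its log2 fold change of 0.45 (SE 0.14, adjusted p = 0.0155) with EUC did not pass, though it did without NC replicate 1 (0.61, adjusted p = 0.00304) and without a filter on low counts (0.00554). Nor did *RIPK2* pass at 0.29 with EPL, 0.34 with SUC and 0.21 with SPL. *BIRC3*, a ubiquitin ligase of this complex, rose on the log2 scale by 7.82 (SE 0.20) with EUC, and *TNFAIP3*, the deubiquitinase A20 that limits NF-kappa B signalling, by 5.29 (SE 0.12). With SUC the rises on that scale were 7.23 for *BIRC3* and 5.07 for *TNFAIP3*. *SLC15A2*, a transporter of small peptides, was at 23.0, 22.1 and 23.5 CPM in NC and fell in all 4 groups, by 1.10 on the log2 scale with EUC, 1.00 with EPL, 1.01 with SUC and 1.06 with SPL.

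Of 12 NLRP3 regulators and channels, 4 rose in each group, and 2 fell with EUC and with EPL, 0 with SUC and 1 with SPL. Of all tested genes 14.0% fell with EUC and 13.2% with EPL, near the share of 2 in 12, and 12.4% to 16.5% rose. *GBP5*, a guanylate-binding protein that promotes NLRP3 assembly, was at 0.320, 0.353 and 0.537 CPM in NC and 28.6, 28.7 and 25.6 CPM in EUC, a log2 fold change of 6.07 (SE 0.19, adjusted p = 8.10e-14). With SUC its log2 fold change was 5.14. Of the 10 inhibitors made of a CARD or PYD domain alone, serpins and related genes, 3 were tested, and 3 rose with EUC and with EPL, 1 with SUC and 2 with SPL, against the same shares of all tested genes. The 1 with SUC was *CARD16*, at 0.91 on the log2 scale.

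**Figure D4:**
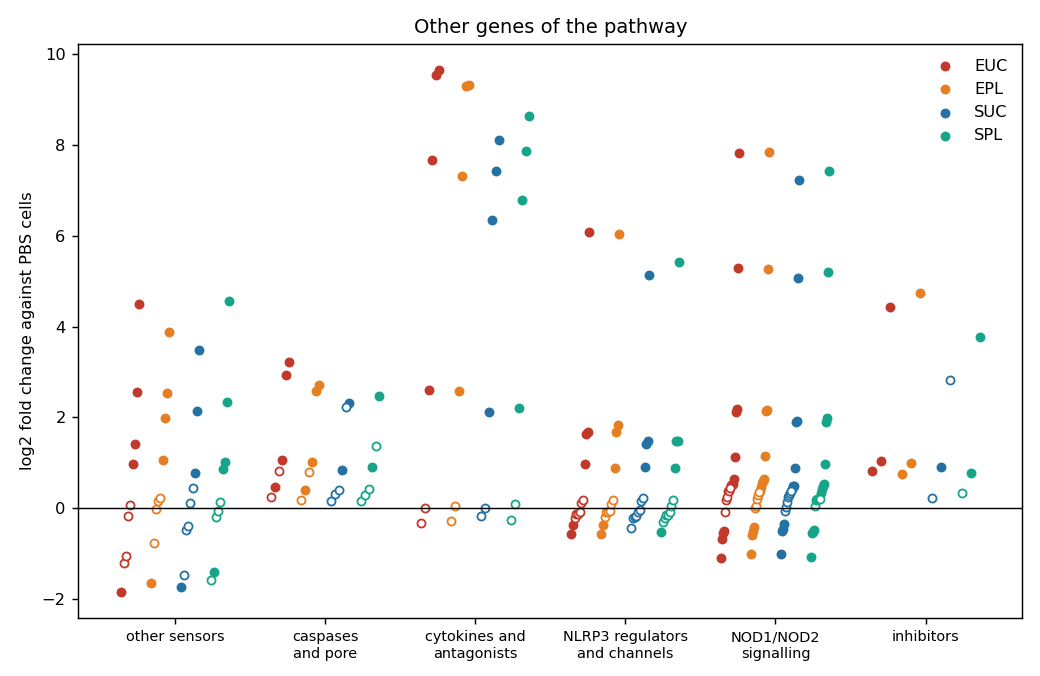
Log2 fold change against NC of the tested pathway genes other than the 10 members, by list, for EUC, EPL, SUC and SPL. Filled points passed an adjusted p of 0.01 and open points did not. The largest values are those of *IL1B* and *IL33* in the cytokine list, of which *IL33* had no read in NC, so that its fitted value depends on the prior count, and most NLRP3 regulators and channels lie near 0.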

How the data were processed

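RNA-seq of THP-1 cells, a cell line, was analysed in 15 libraries of 5 groups, assigned by their titles and treatments. Per the labels and methods, the authors checked reads with FastQC 0.11.5, aligned them to hg38 with HISAT2 2.1.0 and deposited raw counts per gene without normalization. The submitters' processing notes also name featureCounts, StringTie 1.3.3b and DESeq 1.28.0. Strand handling and the gene annotation used for counting are not stated in these sources. Depth was 14399421 to 16637345 counted reads per library, and intervals on counts cover counting error only. Every library had a different total of counted reads. Within groups, the variance between the 3 replicates was 3.11 to 25.3 times the counting noise (chi-square per degree of freedom). This value is pooled over each group and does not compare single pairs of libraries.

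Genes were kept with filterByExpr (17198 of 60286), normalized by TMM and fitted with edgeR 4.0.16 in R 4.3.3 (quasi-likelihood, all 15 libraries at once, no replicate block), and p-values were adjusted by Benjamini-Hochberg over all tested genes. The common biological coefficient of variation was 0.118. The study's thresholds for DEGs were used, an adjusted p up to 0.01 with a 2-fold difference or more. "Passed", "rose" and "fell" refer to the adjusted p alone. CPM was computed from TMM library sizes, and 95% intervals are those of the fit. Alternatives were DESeq2 1.42.0, RLE size factors, no filter, the compared groups alone, a replicate block, no fold threshold and each library left out. A fit without 3 libraries and one corrected for exon length and GC content were added after the data were seen. The correction was fitted to each library's deviation from the mean of all 15 libraries, not of its group. Differences between groups that go with length or GC content are therefore removed as well. The script was tested on simulated data. Positions and exon lengths are from GENCODE release 44, and promoters from RefSeq.

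The members, the pathway lists and the markers were chosen with earlier results of these data known. All members were named, with *IL1B*, *IL18*, *GSDMD*, *RIPK2*, *AIM2*, *NAIP* and *CASP4* and, per species, up to 6 other pathway DEGs of both methods in each direction by size, at a mean CPM of at least 1, and those called between species. One marker list of another cell type and 1 further motif that was searched are not reported here. *CARD16* and *CD68* were named after their values were seen. Most same-numbered libraries did not deviate together (r above 0.1 in 7 of 30 pairs between groups, −0.45 to 0.52). Some did, as r was 0.39 for replicate 1 and 0.52 for replicate 3 of EUC and SUC. For replicate 1 of EUC and EPL it was −0.45.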

Additional observations from a re-analysis of the deposited data

Results flagged for a closer look

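Of the 55 pathway genes tested, 11 differed between the species by edgeR's test of the difference between the mean of the *E. coli* groups and the mean of the *S. aureus* groups, which differ in dose as well. All 11 were higher with *E. coli* BEVs, against 2.87% of all tested genes, and 6 of them are named here by the rule on named genes. For the 6 the log2 difference was 1.79 (SE 0.17, adjusted p = 9.27e-06) for *IL33*, 1.09 (SE 0.09, adjusted p = 1.40e-06) for *IL1B*, 0.92 (SE 0.11, adjusted p = 2.92e-05) for *IL1A*, 0.77 (SE 0.08, adjusted p = 1.50e-05) for *GBP5*, 0.51 (SE 0.08, adjusted p = 3.56e-04) for *BIRC3* and 0.43 (SE 0.09, adjusted p = 0.00591) for *NINJ1*. No library of either *S. aureus* group reached the lowest *E. coli* library for *IL1B*, at 498 to 950 CPM against 1273 to 1987 CPM. The same held for *IL33*, at 1.06 to 2.25 CPM against 4.33 to 6.41 CPM. For *NINJ1* the ranges overlapped, as one SUC library and one SPL library, both at 371 CPM, were above one EPL library at 369 CPM. The call of *NINJ1* was lost without EUC replicate 2, EPL replicates 1 or 2, SUC replicates 1 or 2 or any SPL replicate (adjusted p of 0.0149 to 0.0279) and with the BEV groups fitted alone (0.0174), and the other 5 of the 6 passed under every alternative.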

How the results depend on the processing

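Of 2050 alternative values of log2 fold changes, 1923 kept their direction and their side of an adjusted p of 0.01, 48 no longer passed, 15 newly passed and 64 changed sign. Members called numbered 5 to 6 with EUC, 5 to 7 with EPL, 2 to 6 with SUC and 4 to 7 with SPL. They numbered 0 between methods, between species and for the method by species in every alternative. These ranges include the setting without a fold threshold, whose counts equal the upper ends and are no DEG counts. The only member count that moved by over 1.5 times was SUC without a fold threshold, 6 against 2. Pathway counts without it were 36 with EUC, 36 with EPL, 27 with SUC, 31 with SPL and 11 between species, against 22, 22, 16, 18 and 2 DEGs. The count between species was 2 to 4 with each library left out, and 4 without EUC replicate 3. With the replicate block, whose numbers went with shared deviations in some pairs of libraries only, *NLRC5* with EUC was −0.02. *NLRC4* (adjusted p = 0.0122) and *PYCARD* (0.0108) with SUC then no longer passed.

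The sign changes fell on values that did not pass. Without the 3 libraries that stood apart, they were *IL18* with EUC (−0.29) and SUC (−0.01), *NAIP* with EUC (0.04), *GSDMD* with EPL (−0.08), *NLRP3* (0.01) and *NLRC5* (0.07) with SUC, *NLRP12* between SPL and SUC (0.05), *NOD1* between species (0.02), and *NLRX1* (0.00) and *PYCARD* (−0.22) in the method by species. With the correction for length and GC content they were *IL18* with EUC (−0.16), EPL (−0.03) and SUC (−0.15) and *NLRC5* with SUC (0.13), and without a filter *NLRP3* with SUC (0.00). With each library left out against NC, *NLRC5* ran from −0.21 to 0.17, *IL18* from −0.30 to 0.29 and *NAIP* from −0.51 to 0.03 with EUC, and *GSDMD* from −0.08 to 0.31 with EPL. *NLRP3* ran from −0.04 to 0.02, *NLRC5* from −0.17 to 0.07 and *IL18* from −0.05 to 0.10 with SUC, and *NAIP* from −0.11 to 0.05 with SPL. Between EPL and EUC, *NLRX1* ran from −0.07 to 0.04, *PYCARD* from −0.48 to 0.03 and *CASP1* from −0.15 to 0.03, and between SPL and SUC *NLRP12* from −0.11 to 0.07 and *NLRC4* from −0.05 to 0.12. Between species *NOD1* ran from −0.10 to 0.04, *NLRC4* from −0.12 to 0.07 and *NLRC5* from −0.01 to 0.18, and in the method by species *NOD1* from −0.02 to 0.28, *NOD2* from −0.10 to 0.16, *NLRC5* from −0.07 to 0.32 and *PYCARD* from −0.22 to 0.30. The cause was not tested. *NLRP1* and *NLRC4* rest on 31 to 224 reads per group, which limits their precision.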
